A study of Mus musculus with 15 samples.

Results

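The genes described here are 9 published modifiers of spinal muscular atrophy (SMA) or partners of the survival motor neuron protein SMN. They are Pls3, Coro1c, Pfn2, Ncald, Chp1, Uba1, Zpr1, Elavl4 and Igf2bp1. They were chosen by gene symbol from earlier work on the disease, with no measured value used as a criterion. Earlier results of these data were known when the choice was made. The genes are 9 of the 36144 in the deposited table. RNA was measured in 15 libraries of motor neurons cut by laser capture from lumbar segments L1 to L3 of mouse spinal cord at postnatal day 6. The neurons had been labelled with the tracer cholera toxin B, per the design text.

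The 5 groups held 3 libraries each. WT were Smn+/+ littermates and SMA were Smn−/− mice of the SMNΔ7 model. Both carried the human SMN2 and SMNΔ7 transgenes on an FVB background, and both received vehicle. Every treated group had the SMA genotype and was injected intraperitoneally each day from postnatal day 0. SMA+MW150 received MW150, an inhibitor of the stress kinase p38α, at 5 mg/kg. SMA+Pifithrin-α received Pifithrin-α, an inhibitor of p53, at 2.2 mg/kg. SMA+SMN-C3 received SMN-C3, which promotes inclusion of an exon in SMN2 transcripts, at 3 mg/kg. The labels give equal proportions of males and females over the study but not the animals or sexes in each library, so p-values measure the spread between these libraries, which may be technical.

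SMA follows from too little SMN, a protein that assembles spliceosomal ribonucleoproteins and also acts with RNA-binding proteins and actin regulators in motor axons. Plastin 3 (Pls3) bundles actin filaments, and high levels of it protect some people who lack SMN1. Neurocalcin delta (Ncald) and calcineurin-like EF-hand protein 1 (Chp1) are calcium sensors whose reduction is protective in SMA models, and coronin 1C (Coro1c) is an actin-binding partner of plastin 3. Profilin 2 (Pfn2) is a neuronal actin-binding protein that SMN binds. Uba1 is the main ubiquitin-activating enzyme, Zpr1 is a zinc finger protein that binds SMN, and Elavl4 (HuD) and Igf2bp1 (IMP1) are RNA-binding proteins that travel with SMN in axons.

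Levels are in TPM (a relative abundance of transcripts), a scale that corrects for transcript length and has the same total in every library. Smn1, the deleted gene, was at 8.97, 16.5 and 23.3 TPM in the WT libraries and between 0 and 1.5 TPM in the 12 libraries of Smn−/− mice. All 8 motor neuron markers were detected in every group, and their summed level ran from 1081 to 3012 TPM. From 12311 to 14916 genes reached 1 TPM per library. Mitochondrially encoded genes took 21.9% of TPM in WT 1, 20.4% in SMA+Pifithrin-α 3, 12.6% in SMA+Pifithrin-α 2 and 11.3% in SMA+SMN-C3 1. They took 3.76% to 7.55% in the other 11 libraries, and results that rest on these 4 libraries are given with and without them. Of 4 Y-linked genes, the summed level was 1.60 to 3.86 TPM in WT 3, SMA 2, SMA 3 and SMA+MW150 2 and 48.7 to 259 TPM in the other 11 libraries. In these bulk samples, fewer cells of a type and less RNA per cell cannot be told apart.

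The deposited transcript table separates 3 of the genes by short coding stretches that one leading transcript holds and another lacks. These are printed because the transcript shares given further on turn on them. Capitals mark the stretch and lower case its neighbours in the spliced coding sequence, 5′ to 3′, from the GENCODE M21 transcripts on GRCm38. The Pls3 stretch is a 27-base exon at chrX:75799717-75799743 on the minus strand. The Zpr1 stretch is a 48-base exon at chr9:46276200-46276247 on the plus strand. It is not the only difference between the leading Zpr1 transcripts. Zpr1-206 also holds a 162-base coding stretch at chr9:46273478-46273639 that Zpr1-201 lacks and that is not printed. The Pfn2 stretch is the 132-base coding part of the first coding exon, at chr3:57847351-57847482 on the minus strand, and begins with the start codon. Each divides into whole codons.
Pls3 27-base exon: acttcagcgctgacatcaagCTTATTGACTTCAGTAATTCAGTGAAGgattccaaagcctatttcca
Zpr1 48-base exon: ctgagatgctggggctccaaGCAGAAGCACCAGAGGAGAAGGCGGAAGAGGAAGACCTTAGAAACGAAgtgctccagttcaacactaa
Pfn2 first coding part: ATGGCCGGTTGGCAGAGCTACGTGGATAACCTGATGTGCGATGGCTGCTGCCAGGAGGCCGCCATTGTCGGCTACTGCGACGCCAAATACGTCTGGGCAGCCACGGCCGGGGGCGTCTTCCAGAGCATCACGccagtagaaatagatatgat

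In WT motor neurons, 8 of the 9 genes were clearly expressed and their levels spanned a wide range. Pfn2 was highest at 978 ± 402 TPM (SD, n = 3), which ranked it 139 among all genes by mean WT level. Elavl4 followed at 158 ± 15.4 TPM and Uba1 at 81.1 ± 30.1 TPM. Ncald was at 52.7 ± 26.2 TPM, Chp1 at 46.3 ± 10.2 TPM and Pls3 at 45.8 ± 14.2 TPM. Zpr1 was at 31.2 ± 14.3 TPM and Coro1c at 30.5 ± 10.9 TPM. Igf2bp1 was lowest at 0.467 ± 0.464 TPM. The WT libraries did not overlap between Pfn2 and Elavl4, between Elavl4 and Uba1, or between Coro1c and Igf2bp1. All other neighbours in this order overlapped, so their order from Uba1 down to Coro1c was not resolved by 3 libraries.

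Relatives of each gene placed these levels in context. Pls3 had the highest mean of the plastins in WT, with the leukocyte plastin Lcp1 at 34.0 ± 11.4 TPM and Pls1 at 2.06 ± 1.02 TPM. In WT 3 Lcp1 (47.0 TPM) lay above Pls3 (41.8 TPM), so the order of these genes was not resolved. Coro1c came after Coro1a (112 ± 56.7 TPM) and Coro1b (39.7 ± 12.3 TPM). Profilin 1 (Pfn1) was at 575 ± 223 TPM, below Pfn2 on average. Among the neuronal calcium sensors, Vsnl1 (186 ± 32.8 TPM), Hpcal1 (128 ± 53.9 TPM) and Hpca (82.9 ± 51.3 TPM) had higher means than Ncald. Chp2, the close relative of Chp1, was listed at 0 in the WT libraries. Elavl2 was at 166 ± 84.1 TPM, with a mean near that of Elavl4 but libraries further apart (261, 102 and 133 TPM). Elavl3 was at 32.7 ± 5.11 TPM. Both relatives of Igf2bp1 were low but had higher means than it, with Igf2bp2 at 4.10 ± 3.05 TPM and Igf2bp3 at 3.38 ± 0.874 TPM.

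**Figure D1:**
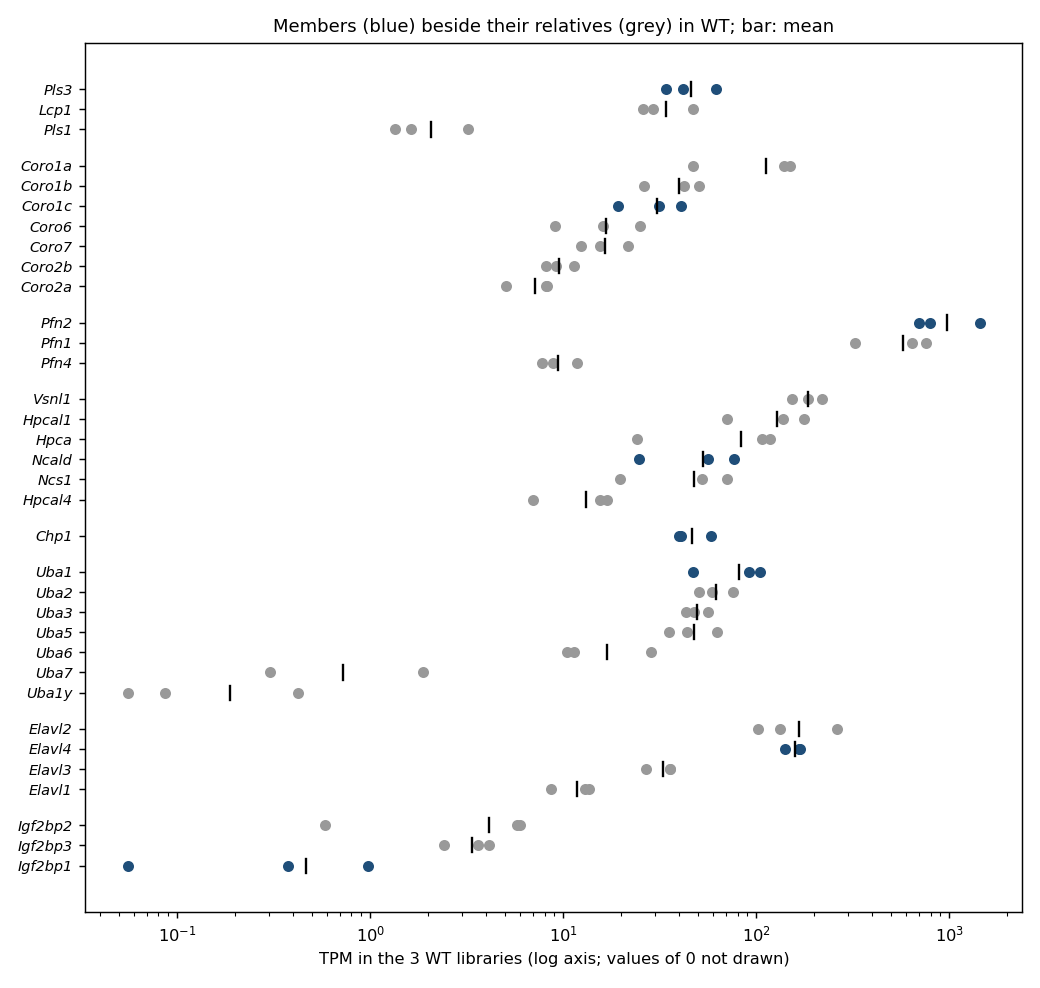
Level of each gene (blue) and its relatives (grey) in the 3 WT libraries, in TPM on a log axis, with a bar at the mean and values of 0 not drawn. Pls3, Pfn2, Chp1 and Uba1 have the highest mean of their families, and Igf2bp1 the lowest of its family.

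The comparison of SMA with WT asks whether loss of SMN was accompanied by other levels of its modifiers. None of the 8 genes that passed the filter of at least 1 TPM in at least 3 libraries was called between SMA and WT at a Benjamini-Hochberg adjusted p under 0.05 in limma, where 0.363% of 15425 tested genes were called. At an unadjusted p under 0.05 the count was 1 of 8, Zpr1, against 13.5% of all genes. The groups did not overlap for 4 of the 8 genes, against 18.3% of all genes. Zpr1, Coro1c and Uba1 were higher in SMA in every library (14.5% of all genes), and Pfn2 was lower (3.81%). Log2 changes are on the log2(TPM+1) scale, and their median over the 8 genes was 0.45, beside 0.24 over all tested genes.

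Among the actin regulators, Pls3 was at 61.5, 34.1 and 41.8 TPM in the WT libraries, and at 38.1, 28.0 and 39.5 TPM in the SMA libraries. The groups overlapped, and WT 1 alone lay above all SMA libraries by a wide margin. The log2 change was -0.34 (SE 0.29, 95% interval -0.95 to 0.26, limma adjusted p = 0.553), and -0.11 without the 4 libraries of high mitochondrial share. Pls3 lies on the X chromosome (chrX:75785654-75875182, minus strand). It was at 28.0 to 45.8 TPM in the 4 libraries of low Y-linked level, which include SMA 2 and SMA 3, and at 33.6 to 62.6 TPM in the other 11. The part of this difference in the result was not tested.

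Coro1c (chr5:113842436-113908758, minus strand) was at 19.2, 31.4 and 40.8 TPM in the WT libraries, and at 45.8, 48.7 and 52.2 TPM in the SMA libraries. Every SMA library lay above every WT library. SMA minus WT was 0.73 on the log2 scale (SE 0.38, 95% interval -0.07 to 1.52, limma adjusted p = 0.396), and 0.44 without the 4 libraries of high mitochondrial share. Pfn2 (chr3:57841895-57848079, minus strand) was at 1439, 701 and 795 TPM in the WT libraries, and at 697, 588 and 667 TPM in the SMA libraries. Although the groups did not overlap, SMA 1 lay just under WT 2. Its log2 change was -0.52 (SE 0.33, 95% interval -1.21 to 0.17, limma adjusted p = 0.451), and -0.20 without the 4 libraries. It was -0.77 with median-of-ratios scaling and -0.013 with the mitochondrial share as a covariate.

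Of the calcium sensors, Ncald (chr15:37366175-37792570, minus strand) was at 24.8, 76.8 and 56.5 TPM in the WT libraries, and at 134, 65.3 and 50.0 TPM in the SMA libraries. The groups overlapped widely, with WT 1 lowest and SMA 1 highest of all 15 libraries. Between the means the log2 change was 0.66 (SE 0.45, 95% interval -0.28 to 1.60, limma adjusted p = 0.475), and 0.20 without the 4 libraries. Its long locus overlaps 11 other annotated genes, that of Coro1c 3 and that of Igf2bp1 2. These overlaps are of whole gene spans, and overlap of exons was not checked. Whether the authors' quantification used strand is not given in the sources used here, so how far these values are affected is unknown. Chp1 (chr2:119547697-119587027, plus strand) was at 40.9, 39.9 and 58.1 TPM in the WT libraries, and at 50.8, 52.5 and 63.7 TPM in the SMA libraries. It varied least of the 9 genes, with 1.60-fold between its lowest and highest library. Its log2 change was 0.27 (SE 0.24, limma adjusted p = 0.574).

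Uba1 was at 47.2, 91.6 and 105 TPM in the WT libraries, and at 122, 105 and 130 TPM in the SMA libraries. The lowest SMA library lay less than 1 TPM above the highest WT library, and the groups overlapped after median-of-ratios scaling between libraries. Uba1 had a log2 change of 0.62 (SE 0.32, 95% interval -0.06 to 1.29, limma adjusted p = 0.396), and 0.27 without the 4 libraries of high mitochondrial share. Uba1 is X-linked as well (chrX:20658326-20683179, plus strand), and was at 102 to 130 TPM in the 4 libraries of low Y-linked level against 47.2 to 136 TPM in the others. Its Y-linked homologue Uba1y was at most 0.424 TPM in any library.

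Zpr1 had the largest log2 change of the 8 on the scale as deposited, and with median-of-ratios scaling Pfn2 (-0.77) and Zpr1 (0.75) were of like size. The gene (chr9:46273064-46282643, plus strand) was at 15.2, 35.4 and 42.9 TPM in the WT libraries, and at 57.8, 52.1 and 64.6 TPM in the SMA libraries. Every SMA library lay above every WT library, also after median-of-ratios scaling. Its log2 change was 0.99 (SE 0.40, limma adjusted p = 0.331), with a 95% interval of 0.16 to 1.83, or 1.11-fold to 3.56-fold. Without WT 1 it was 0.56 (limma adjusted p = 0.964). Leaving out all 4 libraries of high mitochondrial share gives the same change, because only WT 1 of them is in either group.

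For the RNA-binding proteins, Elavl4 (chr4:110203722-110351909, minus strand) was at 168, 141 and 166 TPM in the WT libraries, and at 180, 163 and 155 TPM in the SMA libraries. The groups overlapped, and the log2 change of 0.07 (SE 0.29, 95% interval -0.53 to 0.67, limma adjusted p = 0.913) became -0.18 with median-of-ratios scaling and -0.10 with quantile normalization. Igf2bp1 (chr11:95957163-96005940, minus strand) was at 0.970, 0.0558 and 0.376 TPM in the WT libraries, and at 0.0831, 0.830 and 0.928 TPM in the SMA libraries. It reached 1 TPM in 2 of 15 libraries, both of SMA+MW150, and so was not tested. On average 93.4% of its value lay on a noncoding transcript, and its coding transcript was at most 0.284 TPM in any library.

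Summed markers of other cell types and of motor neurons were also compared between SMA and WT, and only those of microglia had the groups apart. The summed level of 10 microglia markers was 42.6 to 77.4 TPM in WT and 143 to 166 TPM in SMA, and none of the 10 was at 0 throughout a group. Astrocyte markers summed to 747 to 1461 TPM in WT and to 1351 to 1839 TPM in SMA, overlapping. Oligodendrocyte-lineage markers summed to 688 to 2077 TPM in WT and to 888 to 4260 TPM in SMA, overlapping. Motor neuron markers summed to 1392 to 2670 TPM in WT and to 2302 to 2863 TPM in SMA, also overlapping. Vascular markers (65.4 to 78.7 TPM in WT, 23.6 to 116 TPM in SMA) overlapped too. So did interneuron markers (25.1 to 52.2 TPM in WT, 23.5 to 37.9 TPM in SMA). The part of these marker sums in the differences of the 8 genes was not tested. After median-of-ratios scaling, 4 of 8 genes again did not overlap (16.7% of all genes), with Coro1c and Zpr1 higher and Pls3 and Pfn2 lower in SMA.

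**Figure D2:**
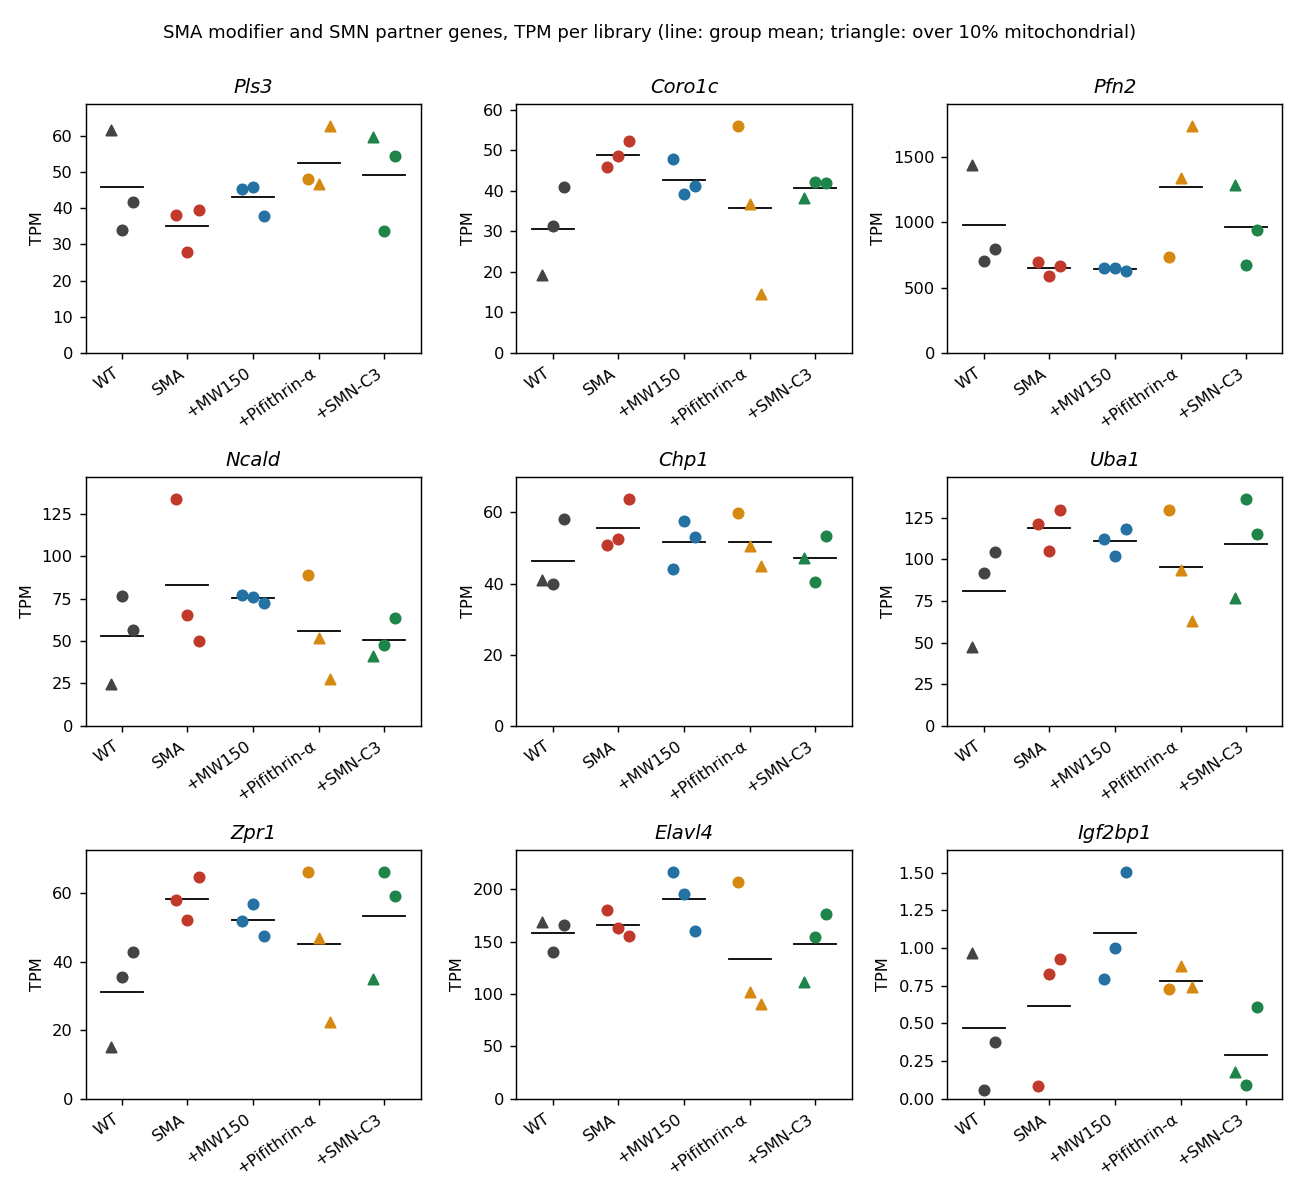
TPM of the 9 genes in each library by group, with a line at the group mean and triangles for the 4 libraries with over 10% of TPM on mitochondrially encoded genes. The triangles hold the 4 highest Pfn2 values, and the lowest Ncald, Zpr1 and Uba1 value is the WT triangle.

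With MW150, none of the 8 genes was called against SMA (0.00648% of all genes), none had an unadjusted limma p under 0.05 (1.90% of all genes), and none had groups apart (10.9%). After median-of-ratios scaling Coro1c alone lay wholly below SMA (log2 change -0.27). The share of all genes apart after scaling is not given for this comparison, so this 1 of 8 cannot be set against it. Zpr1 was at 51.8, 56.7 and 47.5 TPM with MW150, a log2 change of -0.16 from SMA (95% interval -1.0 to 0.68). Pls3 was at 45.2, 45.8 and 37.9 TPM, with a change of 0.29 (95% interval -0.31 to 0.90). Pfn2 was at 651, 654 and 624 TPM, the narrowest spread of any group, with a change of -0.014 (95% interval -0.70 to 0.68). Ncald was also tight here, at 76.9, 75.8 and 72.7 TPM, with a change of -0.015 (95% interval -0.96 to 0.93). The smallest adjusted p in limma was 1.0, which does not show that the levels were alike.

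With Pifithrin-α, none of the 8 genes was called against SMA (0.00648% of all genes), and 1 had an unadjusted limma p under 0.05 (10.7% of all genes). Groups did not overlap for 2 of 8, Pfn2 and Pls3, both higher with treatment (15.3% of all genes in either direction and 5.53% higher). After median-of-ratios scaling Pfn2 overlapped, which left Pls3 (16.5% of all genes). Pfn2 was at 739, 1343 and 1737 TPM, against 588 to 697 TPM in SMA. Its log2 change was 0.88 (SE 0.33, limma adjusted p = 0.461), with a 95% interval of 0.19 to 1.57. The 2 high values were the libraries of 12.6% and 20.4% mitochondrial share, and without the 4 libraries of high share the change was 0.19 (limma adjusted p = 0.852). That value rests on 1 treated library, which the fit assumes to vary like the other groups.

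Pls3 was at 48.1, 46.6 and 62.6 TPM with Pifithrin-α and at 28.0 to 39.5 TPM in SMA. On the log2 scale the difference was 0.57 (SE 0.29, 95% interval -0.04 to 1.17, limma adjusted p = 0.461), and 0.46 without the 4 libraries. The other 6 tested genes had lower means than in SMA, from -0.63 for Coro1c to -0.11 for Chp1. The median over all tested genes was also below 0, at -0.22. After median-of-ratios scaling the changes of the 6 ran from -0.38 for Coro1c to 0.15 for Chp1. Each of these 6 lay above the SMA mean in the single library kept when the 4 were left out, with log2 changes of 0.11 for Chp1 to 0.32 for Elavl4. Coro1c shows the spread within the group, at 56.0, 36.8 and 14.5 TPM, the highest and the lowest value of all 15 libraries. Zpr1 was at 66.0, 46.8 and 22.3 TPM.

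With SMN-C3, none of the 8 genes was called against SMA (0.0648% of all genes), and none had an unadjusted limma p under 0.05 (8.53% of all genes). Groups did not overlap for Coro1c alone (20.7% of all genes). After median-of-ratios scaling Coro1c overlapped, and Pls3 and Pfn2 were higher in every treated library, 2 of 8 genes (18.5% of all genes). Coro1c was at 38.2, 42.2 and 42.0 TPM, all under SMA, with a log2 change of -0.26 (95% interval -1.05 to 0.54, limma adjusted p = 0.894) that became 0.0042 with median-of-ratios scaling. Zpr1 was at 34.8, 66.0 and 59.2 TPM, with a change of -0.17 (95% interval -1.01 to 0.67) that turned to 0.11 without the 4 libraries of high mitochondrial share. Pls3 was at 59.7, 33.6 and 54.3 TPM, a change of 0.45 (95% interval -0.16 to 1.05), and 0.29 without the 4 libraries. Pfn2 was at 1290, 670 and 940 TPM, with a change of 0.52 (95% interval -0.17 to 1.21), and 0.29 without the 4 libraries.

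**Figure D3:**
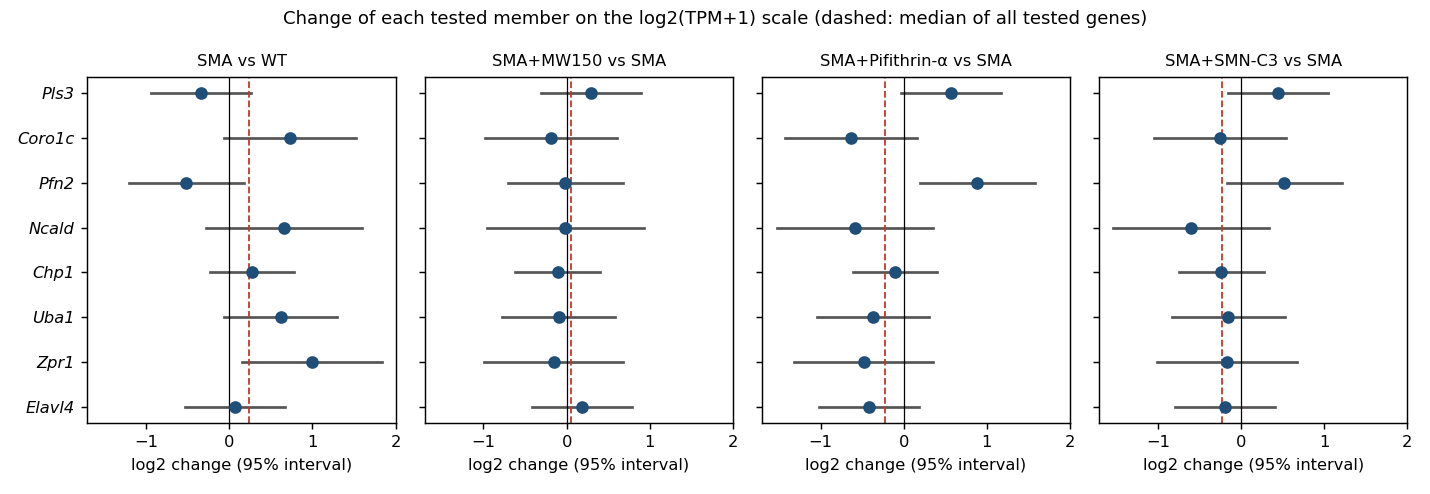
Log2 change of each tested gene with its 95% interval from limma, for SMA against WT and for each treatment against SMA, with the median of all tested genes dashed. The interval leaves out 0 for Zpr1 in SMA against WT (0.16 to 1.83) and for Pfn2 with Pifithrin-α (0.19 to 1.57).

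Each treated group was also set against WT. These comparisons share the WT libraries with the first one and are not independent of it. None of the 8 genes was called with MW150 (0.143% of all genes), Pifithrin-α (0.117%) or SMN-C3 (0.0194%), and none had an unadjusted limma p under 0.05 (10.2%, 5.78% and 7.31% of all genes). Groups did not overlap for 2 genes with MW150, Zpr1 higher (17.9% of all genes) and Pfn2 lower (2.0%), against 19.9% in either direction, and for none with Pifithrin-α (6.87%) or SMN-C3 (12.8%). After median-of-ratios scaling Zpr1 again lay wholly above WT and Pfn2 wholly below it with MW150. Coro1c lay wholly above WT with SMN-C3 (log2 change 0.49). The shares of all genes apart after scaling are not given for these comparisons, so these counts cannot be set against them. The log2 change of Zpr1 from WT was 0.84 with MW150 (95% interval -0.0011 to 1.68), 0.51 with Pifithrin-α (-0.33 to 1.35) and 0.83 with SMN-C3 (-0.01 to 1.67). Without the 4 libraries of high mitochondrial share these were 0.40, 0.75 and 0.67. Over all 5 groups at once, the moderated F test of limma called none of the 8 (0.220% of all genes, and 9.46% at an unadjusted p under 0.05, again none of the 8). Its smallest adjusted p was 0.530, for Pfn2.

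Transcripts gave a finer view of the same genes. The table listed 67 transcripts of the 9 genes, of which 38 passed the filter. None of the 38 was called in limma between SMA and WT (0.221% of all transcripts), or in MW150, Pifithrin-α or SMN-C3 against SMA (0.00240%, 0.00479% and 0.0120%). At an unadjusted p under 0.05 the counts were 5, 2, 2 and 0, against 12.2%, 4.52%, 8.33% and 6.88% of all transcripts. The 5 were Zpr1-201, Ncald-203, Coro1c-201 and Uba1-202, with higher means in SMA, and Elavl4-207, with a lower mean. Of these 5, Zpr1-201 had the largest log2 change, 1.65 (SE 0.54, limma adjusted p = 0.282). It was at 1.20, 13.2 and 7.21 TPM in the WT libraries, and at 19.1, 16.4 and 21.8 TPM in the SMA libraries. WT 1, of high mitochondrial share, had the lowest WT value of each transcript with a higher mean in SMA. For Elavl4-207 it had the highest WT value. Transcript changes without WT 1 are not given here. Most genes had one leading transcript: Chp1-201 held 98.4% of Chp1 on average, Coro1c-201 held 91.4% of Coro1c and Uba1-201 held 82.4% of Uba1. Elavl4 was the most divided, and a noncoding transcript, Elavl4-211, held 32.8% of its TPM on average. That share was 0% in WT 1 and SMA+Pifithrin-α 3 and 13.6% in SMA+Pifithrin-α 2, all of high mitochondrial share. SMA+SMN-C3 1, also of high mitochondrial share, was at 34.6%, and the remaining libraries ran from 33.9% to 46.6%. The part of the mitochondrial share in this was not tested.

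Pls3-203, the transcript with the 27-base exon, held 56.5% to 78.2% of Pls3 over the 15 libraries. Its share was 65.4%, 69.8% and 61.4% in WT and 66.7%, 63.4% and 74.6% in SMA, so the groups overlapped. Pls3-204, which lacks the exon, held 28.6% on average. For Zpr1, transcripts with the 48-base exon held 92.1%, 62.6% and 83.2% in WT and 67.0%, 68.5% and 66.3% in SMA. For the 162-base stretch the shares were 92.1%, 61.5% and 82.9% in WT and 65.8%, 67.9% and 63.5% in SMA. For both stretches the WT libraries spanned the SMA libraries on both sides.

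Pfn2 transcripts with the printed first coding part held 3.59%, 22.5% and 24.0% of Pfn2 in WT and 32.3%, 27.1% and 31.5% in SMA. Every SMA library was above every WT library, as a description with no test. The 4 libraries of high mitochondrial share had the 4 lowest shares, 3.59% in WT 1, 5.14% in SMA+Pifithrin-α 3, 11.9% in SMA+Pifithrin-α 2 and 12.4% in SMA+SMN-C3 1, against 22.5% to 32.3% in the other 11. The rest of Pfn2 lay almost wholly on Pfn2-202, which lacks this part and held 77.5% on average. The same 4 libraries had the highest Pfn2 levels, 1290 to 1737 TPM against 588 to 940 TPM. The part of the mitochondrial share in the level or the transcript shares was not tested.

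**Figure D4:**
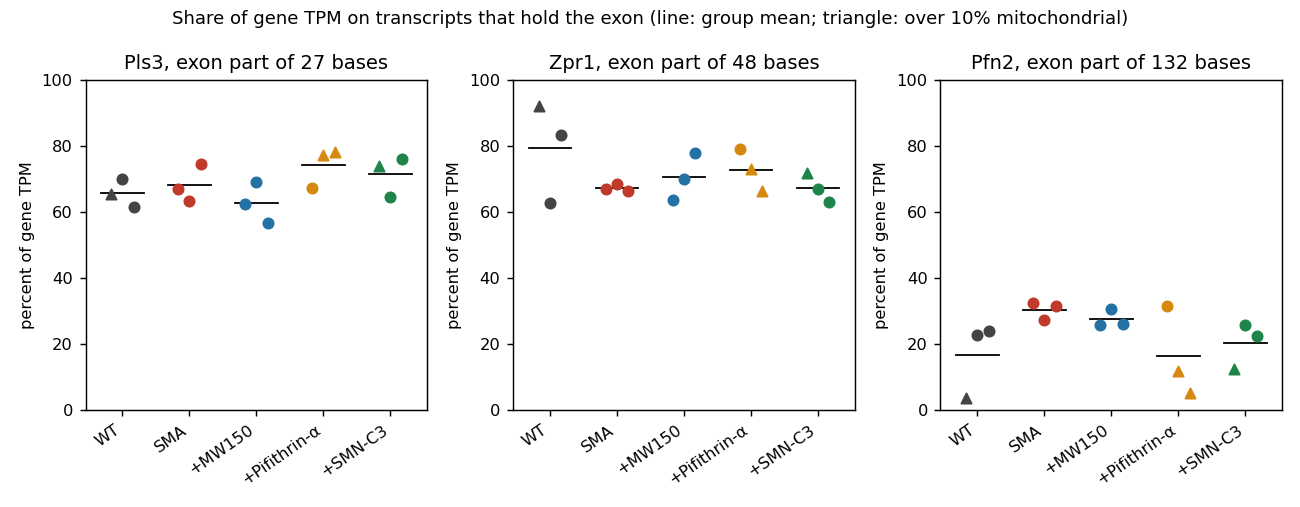
Percent of each gene's TPM on transcripts that hold the named exon part, by library and group, with a line at the group mean and triangles for the 4 libraries of high mitochondrial share. For Pfn2 the triangles are the 4 lowest values, 3.59% to 12.4%.

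**Figure D5:**
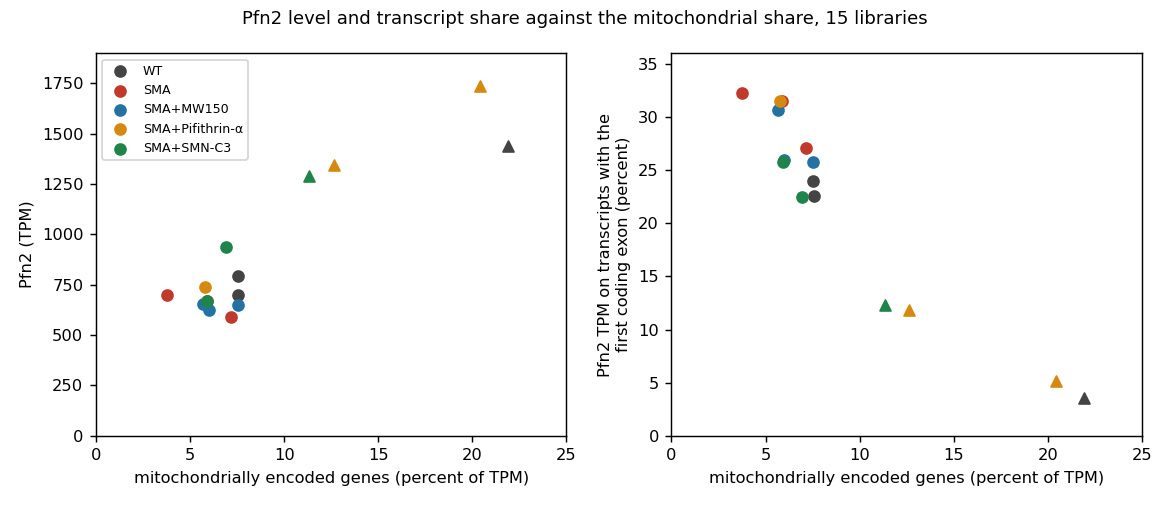
Pfn2 level in TPM (left) and percent of Pfn2 TPM on transcripts with the first coding exon (right) against the percent of TPM on mitochondrially encoded genes, 1 point per library, coloured by group. The 4 libraries above 10% have levels of 1290 to 1737 TPM and shares of 3.59% to 12.4%.

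Partners of the 9 genes were taken from 6 lists by function, with 105 genes listed and 104 tested. In limma none of the 104 was called in any of the 7 comparisons, and 16 had an unadjusted p under 0.05 between SMA and WT (13.5% of all genes). Against SMA the counts at an unadjusted p under 0.05 were 1 with MW150 (1.90% of all genes), 13 with Pifithrin-α (10.7%) and 4 with SMN-C3 (8.53%). Without the 4 libraries of high mitochondrial share, 1 of the 104 was called between SMA and WT, Limk2, where 0.685% of all genes were called (103 genes). The same fit called Limk2 alone of the 104 between SMA+MW150 and WT, where 0.259% of all genes were called (39 genes). With WT 1 alone left out, Limk2 was not called between SMA and WT (limma adjusted p = 0.858). Between SMA and WT, 13 of the 104 had SMA wholly above WT (14.5% of all genes) and 12 had SMA wholly below it (3.81%).

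The actin list of plastins, coronins, profilins and regulators held 26 genes, with a median log2 change of 0.19 between SMA and WT beside 0.24 for all genes. Its largest change was in Limk2, a kinase that inactivates cofilin. Limk2 was at 19.8, 53.5 and 54.7 TPM in the WT libraries, and at 111, 99.2 and 92.4 TPM in the SMA libraries, with the groups apart. Limk2 had a log2 change of 1.35 (SE 0.45, limma adjusted p = 0.264), and 0.88 without the 4 libraries (adjusted p = 0.0282). Of these libraries only WT 1 is in either group. With WT 1 alone left out the change was also 0.88, but the limma adjusted p was 0.858. Limk2 was at 98.2 to 114 TPM with MW150, at 98.1, 75.0 and 23.8 TPM with Pifithrin-α and at 30.7, 64.1 and 48.4 TPM with SMN-C3.

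The list of calcium sensors and calcineurin, the phosphatase that Chp1 inhibits, had a median of 0.05 over 15 tested genes. Ppp3cb, a catalytic subunit of calcineurin, had the largest change. It was at 191, 66.6 and 70.3 TPM in the WT libraries, and at 32.8, 42.3 and 38.6 TPM in the SMA libraries, with the groups apart. The log2 change was -1.33 (SE 0.34, limma adjusted p = 0.141), and -0.84 without WT 1. SMA lay wholly below WT for 6 of the 15 genes (3.81% of all genes), among them Ppp3cb, Ppp3ca and Ppp3r1, 3 of the 4 calcineurin subunits tested. The fourth, the catalytic subunit Ppp3cc, overlapped, at 12.3, 17.3 and 24.0 TPM in the WT libraries, and at 21.9, 16.9 and 18.7 TPM in the SMA libraries. Ppp3ca, Ppp3r1 and Ppp3cc were chosen for naming after their values were seen. Ppp3ca was at 172, 135 and 168 TPM in the WT libraries, and at 112, 127 and 133 TPM in the SMA libraries. Its lowest WT library (134.7 TPM) lay just above its highest SMA library (133.4 TPM). Ppp3r1, the regulatory subunit, was at 371, 247 and 310 TPM in the WT libraries, and at 227, 209 and 234 TPM in the SMA libraries. For Ppp3r1, too, WT 1 was the highest WT library. Hpcal4, a sensor of the Ncald family, was at 16.9, 15.5 and 6.97 TPM in the WT libraries, and at 53.4, 25.7 and 12.5 TPM in the SMA libraries, overlapping, with a log2 change of 1.02 (limma adjusted p = 0.44).

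The endocytosis list of 23 genes had a median of 0.24, the same as all genes. Its named genes Dnm2, a dynamin (0.93, limma adjusted p = 0.421), and Ap2a1, an adaptor subunit (0.92, adjusted p = 0.424), had their 2 lowest values in WT 1 and SMA+Pifithrin-α 3. Without WT 1 their changes were 0.37 and 0.53. In the ubiquitin list of 13 genes the median was 0.23. Uba6, the other enzyme that activates ubiquitin, was at 28.6, 11.4 and 10.5 TPM in the WT libraries, and at 8.03, 8.26 and 7.88 TPM in the SMA libraries. SMA lay wholly below WT, the direction opposite to Uba1, with a change of -0.83 (limma adjusted p = 0.346), and -0.40 without WT 1.

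In the list of Zpr1 partners and factors that resolve RNA-DNA hybrids, with 9 genes, the median was 0.19. Rnaseh1, which degrades the RNA of such hybrids, was at 0.0284 TPM in WT 1, 9.51 TPM in WT 2 and 14.2 TPM in WT 3, and at 15.1 to 15.9 TPM in SMA. Its log2 change was 1.59 (limma adjusted p = 0.355), and 0.38 without WT 1. Mapk8, a stress kinase, had a change of -0.45 (limma adjusted p = 0.568), and -0.15 without WT 1. The list of axonal mRNA-binding proteins and their cargo, with 18 genes, had a median of -0.08, with 10 of 18 below 0. Igf2bp2 was at 0.581, 6.00 and 5.73 TPM in the WT libraries, and at 9.10, 6.03 and 11.7 TPM in the SMA libraries, a change of 1.20 (limma adjusted p = 0.352), and 0.49 without WT 1. Anxa2, an actin-binding annexin, had a change of 0.94 (limma adjusted p = 0.352), and 0.44 without WT 1.

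The genes whose pattern over the 15 libraries was most like that of Pls3 were Pja2 (Pearson r = 0.962), Htatsf1 (0.956) and Usp14 (0.951). Those most like Ncald were C1ql3 (0.899), Fdft1 (0.863) and Hsd17b4 (0.862). Both searches ran over 10010 genes on the log2 scale after median-of-ratios scaling. The points share libraries and the differences in mitochondrial share among them, and the values are a description. The ranges of Pja2 (151 to 304 TPM), a ubiquitin ligase, and Usp14 (125 to 488 TPM), a deubiquitinase, lay above that of Pls3.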

How the data were processed

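RNA of laser-captured motor neurons was measured in 15 libraries, in 5 groups of 3 taken from the labels. Values are TPM per gene and per transcript, deposited by the authors with 1 column per library, and all columns were used. The submitters' processing notes name kallisto 0.44.0, DESeq2 and the build GRCm38.p6 (mm10). Index, annotation, trimming and the use of strand are not given in the sources used here. Of 118489 transcripts, 98.5% matched GENCODE M21 identifiers, from which coordinates, transcript types and sequences come. TPM keeps no depth, so the depth is unknown.

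The 15425 genes and 41719 transcripts that reached 1 TPM in 3 or more libraries were fitted as log2(TPM + 1) with limma 3.58.1 in R 4.3.3. One mean per group and a trend on the variance were used over all 15 libraries, with two-sided tests. P-values were adjusted with Benjamini-Hochberg over all features in each of 7 comparisons, and calls were made at 0.05. TPM is not a count, so no count model was run. The fit was tested on simulated data. Alternatives were another pseudocount (0.1), other filters, 2 scalings, fits of the groups compared, array weights, the mitochondrial share as a covariate, a replicate block, each library left out, and the 4 libraries over 10% mitochondrial left out. Tables and figures used Python 3.11.15, pandas 2.3.3 and matplotlib 3.10.9.

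The 9 genes, the 6 lists and the tests were chosen with earlier results of these data known. Named genes are the 9, Smn1, the 3 genes most like Pls3 and like Ncald by Pearson r among genes with a mean of at least 5 TPM, and of each list every called gene and the 2 with the largest absolute log2 change between SMA and WT at that mean. Some list genes that this rule names are not reported here. Lists were described by counts and medians, with no test of a list. Xist was not analysed here.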

Additional observations from a re-analysis of the deposited data

How the results depend on the processing

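The 8 tested genes had 0 calls in each of the 7 comparisons and the F test, and the 38 transcripts in 4 comparisons, under each setting run for them except array weights. Transcripts were not fitted without the filter, with the stricter filter or with quantile normalization, and the F test was not run on only the groups compared. Those weights did not converge and gave SMA+Pifithrin-α 2 a weight of 276, against 0.0942 to 1.83 elsewhere. They called 4 genes for SMA+Pifithrin-α against SMA, 2 for SMA+Pifithrin-α against WT, 4 in the F test and 10 transcripts for SMA+Pifithrin-α against SMA. Of 560 log2 changes under other settings 508 kept their direction and their side of the threshold, 6 were past it with array weights and 46 had the other sign. None of the changes with another sign was past the threshold in the values of the report, and the cause was not tested. With array weights the reversed log2 changes were Elavl4 0.059 and Ncald -0.29 for SMA+SMN-C3 against WT and Ncald 0.14 for SMA+MW150 against SMA. They were also Ncald -0.35 for SMA+Pifithrin-α against WT and Pls3 0.19 for SMA+MW150 against WT. With median-of-ratios scaling the reversed log2 changes were Chp1 -0.16 and Elavl4 -0.071 for SMA+MW150 against WT and Chp1 0.15 for SMA+Pifithrin-α against SMA. They were also Chp1 0.025, Coro1c 0.0042, Elavl4 0.072, Uba1 0.11 and Zpr1 0.095 for SMA+SMN-C3 against SMA and Elavl4 -0.18 for SMA against WT. With the mitochondrial share as a covariate the reversed log2 changes were Chp1 0.033, Ncald 0.19, Uba1 0.18 and Zpr1 0.24 for SMA+Pifithrin-α against SMA, Chp1 -0.044 and Ncald -0.39 for SMA+SMN-C3 against WT and Elavl4 -0.15 and Ncald -0.051 for SMA against WT. They were also Ncald 0.069 for SMA+MW150 against SMA, Pls3 0.18 for SMA+MW150 against WT and Uba1 0.031 and Zpr1 0.077 for SMA+SMN-C3 against SMA. With quantile normalization the reversed log2 changes were Chp1 -0.071 for SMA+MW150 against WT, Chp1 0.043 for SMA+Pifithrin-α against SMA and Chp1 -0.015 and Pfn2 -0.18 for SMA+SMN-C3 against WT. They were also Elavl4 -0.10 for SMA against WT and Pfn2 0.049 for SMA+MW150 against SMA. Without the 4 libraries of over 10% mitochondrial share, an alternative chosen after seeing the data, the reversed log2 changes were Chp1 0.11, Coro1c 0.19, Elavl4 0.32, Ncald 0.22, Uba1 0.13 and Zpr1 0.19 for SMA+Pifithrin-α against SMA, Chp1 -0.048, Elavl4 0.11 and Ncald -0.26 for SMA+SMN-C3 against WT and Elavl4 0.43 and Pfn2 -0.015 for SMA+Pifithrin-α against WT. They were also Pls3 0.18 for SMA+MW150 against WT and Uba1 0.079 and Zpr1 0.11 for SMA+SMN-C3 against SMA.

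Of 336 log2 changes with 1 library left out, 308 kept their direction and 28 had the other sign. Over fits that left out 1 library at a time the ranges that crossed 0 were Chp1 (-0.058 to 0.21), Elavl4 (-0.26 to 0.066), Ncald (-0.40 to 0.40), Pfn2 (-0.23 to 0.32) and Pls3 (-0.084 to 0.35) for SMA+SMN-C3 against WT, Coro1c (-0.32 to 0.62), Ncald (-0.39 to 0.50) and Uba1 (-0.10 to 0.51) for SMA+Pifithrin-α against WT and Elavl4 (-0.012 to 0.12) for SMA against WT. They were also Ncald (-0.31 to 0.39) and Pfn2 (-0.085 to 0.037) for SMA+MW150 against SMA, Pls3 (-0.24 to 0.18) for SMA+MW150 against WT and Uba1 (-0.33 to 0.079) and Zpr1 (-0.34 to 0.11) for SMA+SMN-C3 against SMA. Leaving out WT 1 lowered the log2 change of Zpr1 for SMA against WT from 0.99 to 0.56.

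The labels state no pairing by replicate number. Deviations of same-numbered libraries had a mean correlation of -0.014 over 30 pairs (-0.34 to 0.29), and 7 of 15 libraries correlated best with their own number. With 3 libraries a group, these correlations cannot decide whether same-numbered libraries shared a batch. With the replicate number as a block, 0 of 8 genes and 0 of 38 transcripts were called in any comparison, as without it. TPM keeps no depth, so no counting interval or detection floor is given, and the precision rests on 3 libraries a group.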
